A study of Mus musculus with 2 samples.

Results

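The 10 genes described here encode the carriers that move bile acids, phospholipid, sterols and conjugates across the hepatocyte surface. They were chosen by gene symbol, and all 10 (Slc10a1, Slco1a1, Slco1b2, Abcb11, Abcb4, Abcc2, Abcc3, Abcg5, Abcg8 and Atp8b1) were found among the 35129 symbols of both tables. RNA sequencing was done on primary C57BL/6 mouse hepatocytes that had received an adenovirus for the zinc finger transcription factor KLF14, labelled Ad-KLF14, and on the same kind of cells given a control virus labelled Ad-GFP, which the design text calls an empty vector. Both groups therefore carry an adenovirus, and the promoter of the insert, the dose, the time after infection and the number of animals are not given in the sources used here. Each group holds 1 library, so the conditions could not be tested against each other and each difference below describes these 2 libraries.

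Bile formation starts at the sinusoidal face of the hepatocyte, where sodium-coupled and sodium-independent carriers take up bile acids returning from the gut. ATP-driven pumps in the canalicular membrane then secrete bile acids, phosphatidylcholine, cholesterol and conjugates into bile, and a pump in the basolateral membrane can return conjugates to blood. Many of these genes are known targets of nuclear receptors, among them the bile acid receptor FXR and the sterol receptor LXR.

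Values are FPKM, which scale the reads of a gene by its length and by the library total, so levels can be compared between genes. The library totals recovered from the values were 11151711 reads for Ad-KLF14 and 11311344 reads for Ad-GFP. Klf14 itself stood at 13164 FPKM with Ad-KLF14 and 0.298 FPKM with Ad-GFP, and its reads made up 1.95% of the Ad-KLF14 total. All 12 hepatocyte markers were measured, with summed levels of 8577 FPKM with Ad-KLF14 and 10662 FPKM with Ad-GFP. Most of both sums came from albumin, Alb, at 4172 and 5115 FPKM, and Trf, at 3050 and 3992 FPKM. The lowest of the 12 was Cps1, at 2.80 and 4.91 FPKM. The 12419 genes whose mean level reached 1 FPKM were kept for comparison, and their median level was 11.9 FPKM with Ad-KLF14 and 12.5 FPKM with Ad-GFP.

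The carriers fell into 3 abundant genes and 7 scarce ones in both libraries. Abcc2, Abcc3 and Abcb4 together made up 95.5% of the summed level of the 10 genes with Ad-KLF14 and 92.7% with Ad-GFP. The other 7 genes lay between 0.299 and 2.10 FPKM with Ad-KLF14 and between 0.556 and 2.80 FPKM with Ad-GFP, all below the median of the genes kept. The order of the abundant genes differed. Abcc2 was followed by Abcc3 and Abcb4 in the Ad-KLF14 library, and Abcc3 by Abcc2 and Abcb4 in the Ad-GFP library, with no overlap of their counting intervals within either library. Among the scarce genes the order from the highest level was Atp8b1, Abcg8, Slc10a1, Abcg5, Abcb11, Slco1a1 and Slco1b2 with Ad-KLF14, and the counting intervals of all neighbours in it overlapped. With Ad-GFP it was Atp8b1, Abcb11, Slco1a1, Slc10a1, Abcg5, Slco1b2 and Abcg8, and the step from Abcb11 (interval 2.28 to 3.16 FPKM) to Slco1a1 (0.789 to 1.42 FPKM) was the only one between neighbours without overlap. Overlap of intervals alone does not show that levels were alike. The summed level of the 6 canalicular genes was 131 FPKM with Ad-KLF14 and 67.9 FPKM with Ad-GFP, of which Abcc2 alone made up 97.3 and 41.3 FPKM, while Abcb11 and Atp8b1 were lower with Ad-KLF14 and the interval of the Abcg5 ratio held 1. The summed level of the 3 uptake genes was 2.13 FPKM with Ad-KLF14 and 2.80 FPKM with Ad-GFP.

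**Figure D1:**
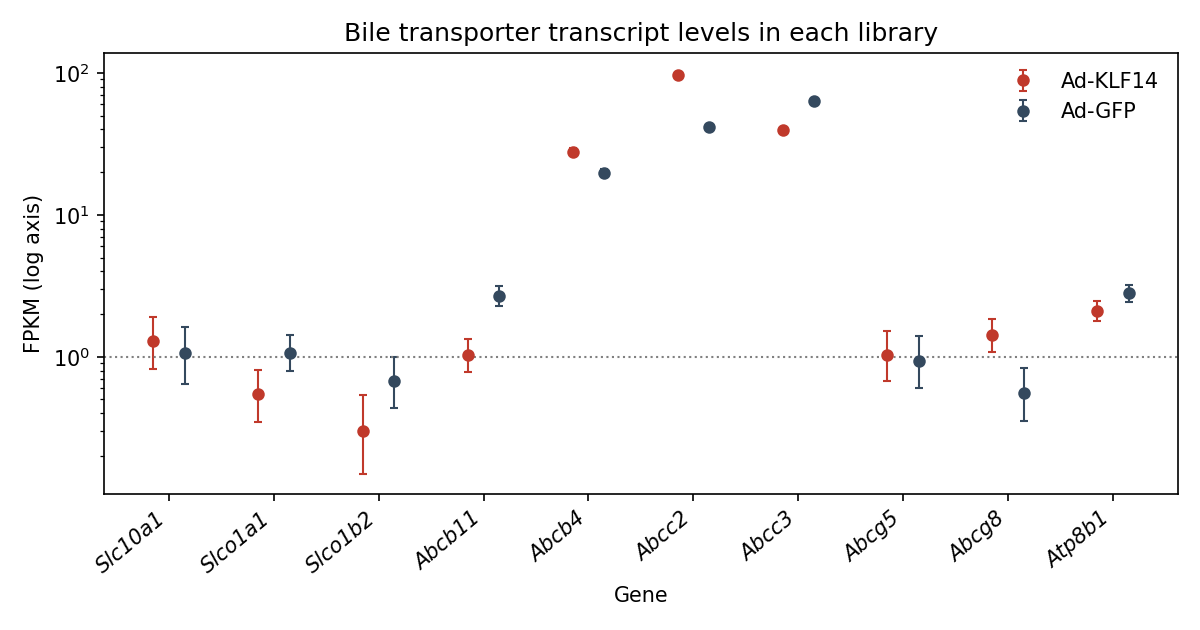
Level of each bile transporter transcript in FPKM (log axis) in the Ad-KLF14 library (red, left of each pair) and the Ad-GFP library (dark, right). Bars are exact 95% Poisson intervals of the reads and cover counting error only, and the dotted line marks 1 FPKM. Abcc2, Abcc3 and Abcb4 stand at 19.7 FPKM or more in both libraries and the other 7 genes at 2.80 FPKM or less.

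Of the 10 genes, 6 reached a mean of 1 FPKM and were kept. On the log2(FPKM + 1) scale, 1 of these (Abcc2) was higher with Ad-KLF14 by 2-fold or more and 0 were lower by as much, where 6.37% of all genes kept were higher by 2-fold or more and 8.99% lower by as much. The 6 had 3 log2 ratios above 0 and 3 below, with a median of −0.07, beside a median of −0.03 and 48.3% above 0 over all genes kept. Slco1a1, Slco1b2, Abcg5 and Abcg8 stood below a mean of 1 FPKM. The pseudocount shrinks the log2 ratios of scarce genes, and by the plain FPKM ratio 2 of the 10 (Abcc2 and Abcg8) were higher by 2-fold or more and 2 (Abcb11 and Slco1b2) lower by as much. Abcg8 and Slco1b2 are among those not kept. Of the 6 kept, 1 was higher by 2-fold or more by the plain ratio and 1 lower by as much. Over all genes kept, these shares were 9.35% and 12.5%. The 95% counting interval of the ratio lay above 1 for 3 of the 10 genes, below 1 for 5 and held 1 for 2. Among the 6 kept it excluded 1 for 5, while 34.1% of all genes kept had an interval above 1 and 38.0% an interval below 1. The interval covers counting error alone and leaves out differences between cultures.

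**Figure D2:**
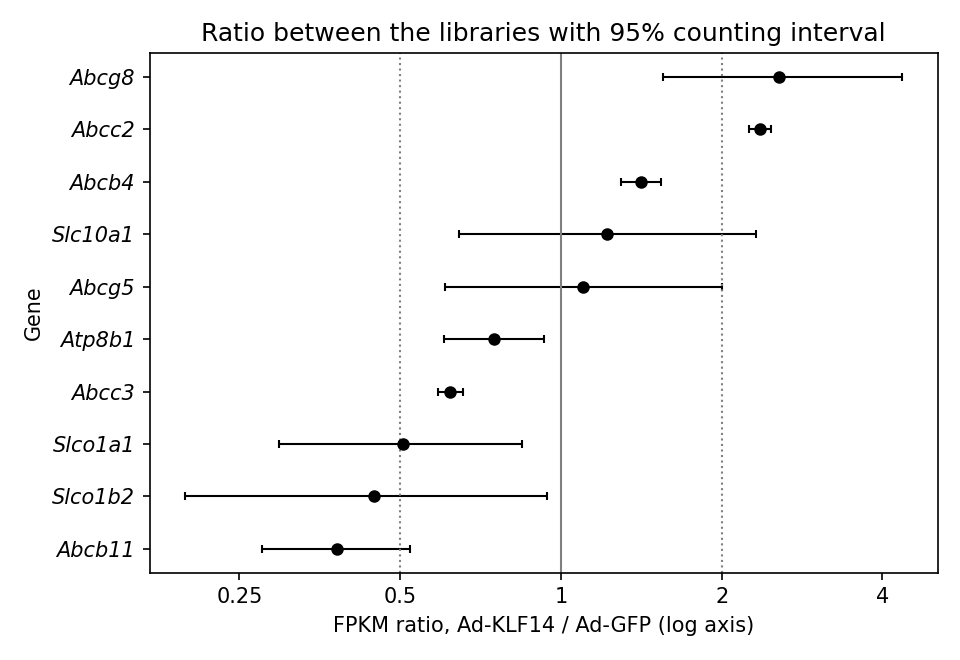
FPKM ratio of Ad-KLF14 over Ad-GFP (log axis) for each gene with its exact 95% counting interval, from the highest ratio at the top to the lowest. The solid line marks equal levels and the dotted lines 2-fold. Abcg8 and Abcc2 lie beyond 2-fold on the higher side and Abcb11 and Slco1b2 beyond it on the lower side, and only Slc10a1 and Abcg5 have an interval that holds 1.

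The start regions of the genes with the widest differences, and that of Abcb4 for its KLF-type boxes, are shown beside the values. RefSeq promoter entries (GRCm38.p6) matched 8 of the 10 genes with 10 entries in all, and the 250 bases before each start were searched on both strands. The files hold no coordinates and the build named for them is mm8, so genes were matched by symbol only. The windows lie at chr6:141629268-141629517 on the plus strand for Slco1b2, chr2:69342617-69342866 on the minus strand for Abcb11, chr19:43782058-43782307 on the plus strand for Abcc2 and chr5:8893471-8893720 on the plus strand for Abcb4. The last line is the 109 bases between the starts of the divergent genes Abcg5 and Abcg8, at chr17:84683012-84683120 on the plus strand, cut from their RefSeq entries. Each runs 5′ to 3′. Capitals mark the nuclear receptor half-site AGGTCA, the inverted repeat AGGTCANTGACCT with at most 1 of its 12 set letters off, the GATA motif GATAA, the KLF-type box CACCC and the GC box GGGCGG, or their reverse complements.
Slco1b2: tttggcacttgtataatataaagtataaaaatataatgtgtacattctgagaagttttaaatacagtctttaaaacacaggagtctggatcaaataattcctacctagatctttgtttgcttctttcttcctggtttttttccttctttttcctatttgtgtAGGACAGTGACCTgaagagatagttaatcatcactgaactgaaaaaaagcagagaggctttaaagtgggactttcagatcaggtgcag
Abcb11: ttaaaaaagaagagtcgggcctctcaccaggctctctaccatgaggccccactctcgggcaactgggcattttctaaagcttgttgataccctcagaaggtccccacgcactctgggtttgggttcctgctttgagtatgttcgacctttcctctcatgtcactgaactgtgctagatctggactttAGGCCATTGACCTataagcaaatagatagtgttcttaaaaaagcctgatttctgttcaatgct
Abcc2: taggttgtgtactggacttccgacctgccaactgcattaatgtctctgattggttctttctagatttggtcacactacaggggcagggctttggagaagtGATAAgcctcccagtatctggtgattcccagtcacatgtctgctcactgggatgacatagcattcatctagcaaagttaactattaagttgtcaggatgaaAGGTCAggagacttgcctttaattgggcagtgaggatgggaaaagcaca
Abcb4: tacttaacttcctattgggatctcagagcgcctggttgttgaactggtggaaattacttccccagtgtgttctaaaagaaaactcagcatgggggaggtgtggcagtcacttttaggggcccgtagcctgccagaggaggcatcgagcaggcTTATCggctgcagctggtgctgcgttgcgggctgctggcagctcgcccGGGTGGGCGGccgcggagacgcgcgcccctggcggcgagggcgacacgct
Abcg5 to Abcg8: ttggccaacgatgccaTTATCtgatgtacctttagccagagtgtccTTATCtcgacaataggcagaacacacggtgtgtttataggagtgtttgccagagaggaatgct

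The inverted repeat is the arrangement known for binding FXR. With 1 letter off it was found 63 bases before the start of Abcb11 and 88 bases before that of Slco1b2, against 26 of 32851 RefSeq promoter windows (0.0791%). Its right arm is itself a half-site match in both. The half-site was found in 5 of the 10 windows (Slc10a1 at its inner start, Slco1a1, Slco1b2, Abcb11 and Abcc2) and in 14.0% of all windows. In Abcc2 it lies 49 bases before the start. The GATA motif was found in 22.6% of all windows and in 4 of the 10, of which those of Abcg5 and Abcg8 share bases. There are 2 GATA matches between these genes. Boxes of the kind that KLF and SP proteins bind were found in 1 of the 10 windows, that of Abcb4, where CACCC and GGGCGG matches share 1 letter. CACCC was found in 52.0% of all windows and GGGCGG in 32.7%. A match is a description of letters, and binding was not measured.

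Among the uptake carriers, Slc10a1 encodes the sodium-taurocholate cotransporter, the main route for conjugated bile acids into hepatocytes. It stood at 1.29 FPKM with Ad-KLF14 and 1.06 FPKM with Ad-GFP, from 24 and 20 reads. The ratio of 1.22 had an interval of 0.644 to 2.32, so these reads do not show a difference. Slco1a1 and Slco1b2 encode organic anion transporters that take up bile acids and many drugs without sodium. Slco1a1 stood at 0.543 FPKM with Ad-KLF14 and 1.07 FPKM with Ad-GFP, from 24 and 48 reads, a ratio of 0.507 (interval 0.297 to 0.844). Slco1b2 stood at 0.299 FPKM with Ad-KLF14 and 0.671 FPKM with Ad-GFP, from 11 and 25 reads, a ratio of 0.446 (interval 0.198 to 0.940). Both organic anion transporters were thus lower in the Ad-KLF14 library, but at levels where a few reads weigh heavily. Their level ratio to each other, Slco1b2 over Slco1a1, was 0.552 with Ad-KLF14 and 0.627 with Ad-GFP, and the interval of the ratio of these ratios (0.333 to 2.24) held 1. Slco1a1 has close relatives in the genome, and how reads with several matches were counted is not given in the sources used here.

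Abcb11 encodes the bile salt export pump, the canalicular carrier for conjugated bile acids. It stood at 1.03 FPKM with Ad-KLF14 and 2.69 FPKM with Ad-GFP, from 56 and 149 reads. This was the lowest ratio of the 10 genes, 2.62-fold lower with Ad-KLF14 (interval 1.92 to 3.63). On log2(FPKM + 1), where the pseudocount shrinks the difference of this scarce gene to −0.87, 11.8% of all genes kept had a lower ratio. GENCODE M21 lists 155 exonic bases of Abcb11 shared with gene models on the opposite strand, and whether reads were assigned by strand is not given in the sources used here. The level of Abcb11 relative to Slc10a1 was 0.798 with Ad-KLF14 and 2.55 with Ad-GFP (ratio of ratios 0.313, interval 0.152 to 0.646). With Ad-KLF14 the counting intervals of both levels overlapped (0.775 to 1.33 FPKM for Abcb11 and 0.824 to 1.91 FPKM for Slc10a1), so these reads do not show their order there. With Ad-GFP Abcb11 (2.28 to 3.16 FPKM) lay above Slc10a1 (0.645 to 1.63 FPKM).

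Abcc2 encodes the canalicular pump for bilirubin glucuronides, glutathione conjugates and other organic anions. It stood at 97.3 FPKM with Ad-KLF14 and 41.3 FPKM with Ad-GFP, from 5847 and 2516 reads. The 2.36-fold ratio had an interval of 2.25 to 2.47, and on log2(FPKM + 1) 3.79% of all genes kept had a higher ratio. By level, Abcc2 ranked 796 among all symbols with Ad-KLF14 and 2232 with Ad-GFP. Abcc3 encodes the related pump of the basolateral membrane, which returns glucuronides and some bile acids to blood. It stood at 39.5 FPKM with Ad-KLF14 and 63.6 FPKM with Ad-GFP, from 2203 and 3599 reads, 1.61-fold lower with Ad-KLF14 (interval 1.53 to 1.70). The canalicular pump was thus the higher of this pair in the Ad-KLF14 library and the basolateral pump in the Ad-GFP library. Their level ratio, Abcc2 over Abcc3, was 2.46 with Ad-KLF14 and 0.649 with Ad-GFP, a 3.80-fold difference (interval 3.54 to 4.08).

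Bile duct cells also express Abcc3, and their markers were lower with Ad-KLF14. Of 12 listed cholangiocyte markers 11 were in the tables and 4 were kept. Of these 4, 3 were below 0 and 2 lower by 2-fold or more, where 8.99% of all genes kept were lower by as much. Their median log2 ratio was −0.91, with −0.44 when no filter on low values was set and −1.37 when a mean of at least 5 FPKM was required. Their summed level was 248 FPKM with Ad-KLF14 and 806 FPKM with Ad-GFP, nearly all from the secreted phosphoprotein gene Spp1 (191 and 681 FPKM) and the claudin gene Cldn4 (40.8 and 107 FPKM). The defining markers Krt7 and Cftr were listed at 0 in both libraries, and the keratin gene Krt19 stood at 0.196 and 1.74 FPKM. The part of these markers in the Abcc3 difference was not tested. In such bulk libraries, fewer cells of a type and less RNA per cell cannot be told apart.

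The phospholipid genes differed in opposite directions. Abcb4 encodes the flippase that delivers phosphatidylcholine to bile, which shields the canalicular membrane from bile acids. It stood at 27.8 FPKM with Ad-KLF14 and 19.7 FPKM with Ad-GFP, from 1263 and 907 reads, 1.41-fold higher with Ad-KLF14 (interval 1.30 to 1.54). Atp8b1, which moves phosphatidylserine to the inner leaflet, stood at 2.10 FPKM with Ad-KLF14 and 2.80 FPKM with Ad-GFP, from 151 and 204 reads, 1.33-fold lower (interval 1.07 to 1.65). Abcb4 exceeded the bile salt pump gene in both libraries, by 27.1-fold with Ad-KLF14 and 7.31-fold with Ad-GFP, and these ratios differed 3.71-fold (interval 2.67 to 5.19). Tmem30a, which encodes the partner subunit that such flippases need, stood at 32.7 and 36.4 FPKM.

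Abcg5 and Abcg8 encode partner subunits of the sterol pump that secretes cholesterol and plant sterols, and they are known as LXR targets. They sit head to head on mouse chromosome 17, with the start regions shown above between them. Abcg5 stood at 1.03 FPKM with Ad-KLF14 and 0.938 FPKM with Ad-GFP, from 26 and 24 reads, a ratio of 1.10 (interval 0.606 to 2.0). Abcg8 stood at 1.42 FPKM with Ad-KLF14 and 0.556 FPKM with Ad-GFP, from 58 and 23 reads, 2.56-fold higher with Ad-KLF14 (interval 1.55 to 4.35). The counting intervals of both levels overlapped within either library (1.08 to 1.84 FPKM for Abcg8 and 0.673 to 1.51 FPKM for Abcg5 with Ad-KLF14, 0.352 to 0.834 and 0.601 to 1.40 FPKM with Ad-GFP), so their order is not shown in either. The level of Abcg8 relative to Abcg5 was 1.38 with Ad-KLF14 and 0.593 with Ad-GFP, a 2.33-fold difference whose interval of 1.04 to 5.18 nearly reaches 1. In GENCODE M21 an upstream start of Abcg8 makes both genes overlap by 6710 bases on opposite strands, 82 of them exonic in both, so some reads of 1 gene may have been counted for the other.

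**Figure D3:**
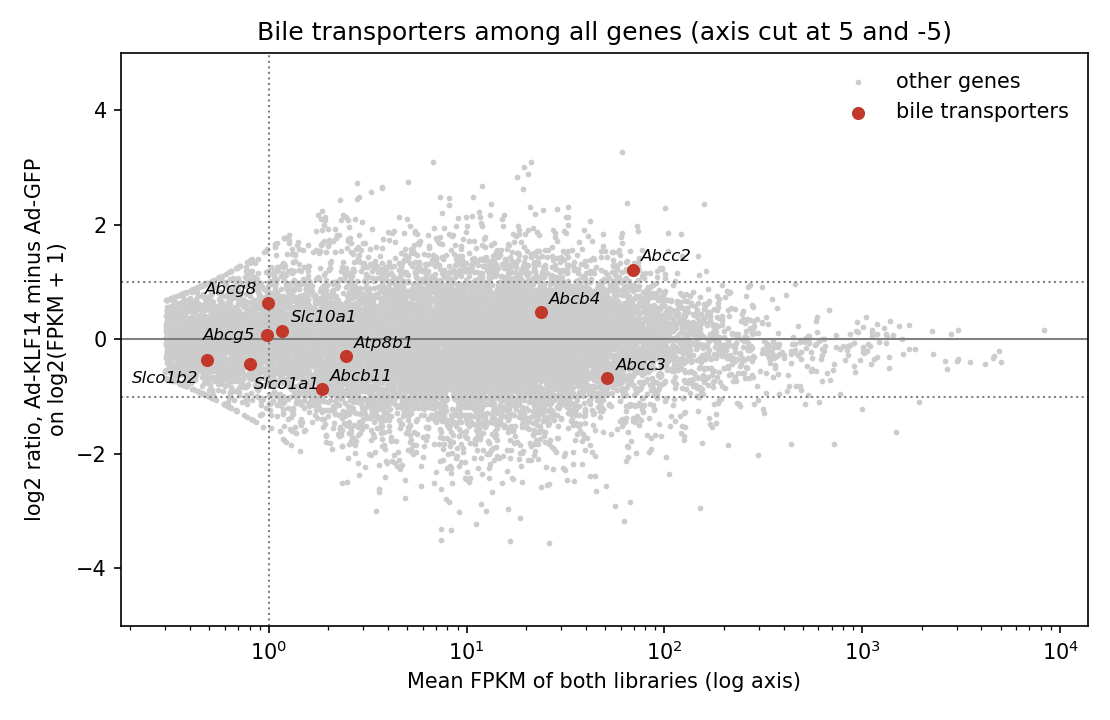
Difference between Ad-KLF14 and Ad-GFP in log2(FPKM + 1) plotted over the mean FPKM of both libraries (log axis) for all genes from 0.3 FPKM on except Klf14 (grey) and the 10 bile transporters (red). Dotted lines mark 2-fold and a mean of 1 FPKM. Abcc2 is the only transporter beyond a dotted horizontal line, and 4 transporters lie left of the filter.

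The listed regulators of these genes or of bile acid synthesis differed among themselves. Of 15 listed, 14 were kept, 10 of them above 0, 2 higher by 2-fold or more and 2 lower by as much, with a median log2 ratio of 0.27 beside −0.03 for all genes kept. Over all genes kept, 6.37% were higher by 2-fold or more and 8.99% lower by as much, which also applies to the lists below. Klb, the coreceptor for the gut hormone that represses bile acid synthesis, stood at 4.54 FPKM with Ad-KLF14 and 0.617 FPKM with Ad-GFP (7.35-fold higher, interval 4.78 to 11.8). Fgfr4, the receptor it works with, stood at 3.22 and 6.77 FPKM (2.10-fold lower, interval 1.67 to 2.65). The liver factor gene Onecut1 stood at 3.10 and 0.388 FPKM (7.99-fold higher, interval 3.82 to 19.3). Nfe2l2, which encodes the antioxidant factor Nrf2 known to induce Abcc2 and Abcc3, stood at 67.8 and 172 FPKM (2.54-fold lower, interval 2.41 to 2.68). Nr1h4, which encodes FXR, stood at 10.9 FPKM with Ad-KLF14 and 6.34 FPKM with Ad-GFP (1.72-fold higher, interval 1.41 to 2.11). Nr0b2, which encodes a repressor and is an FXR target, stood at 1.84 and 4.82 FPKM (2.61-fold lower, interval 1.59 to 4.43). Nr1h3, which encodes LXR alpha, stood at 16.4 and 16.0 FPKM with an interval of the ratio that held 1 (0.886 to 1.20). Hnf4a was 1.30-fold higher and the xenobiotic receptor gene Nr1i2 1.39-fold higher, while Nr1i3 stood at 0.127 FPKM with Ad-KLF14 and was listed at 0 with Ad-GFP.

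The enzymes that make the cargo stayed mostly within 2-fold. Of 14 listed bile acid synthesis genes 11 were kept, 8 of them below 0, 1 higher by 2-fold or more and 0 lower by as much, with a median of −0.22. Cyp27a1, which starts the acidic pathway, stood at 48.2 FPKM with Ad-KLF14 and 23.2 FPKM with Ad-GFP (2.08-fold higher). Cyp7b1, the next enzyme of that pathway, stood at 3.56 and 5.92 FPKM (1.66-fold lower), the racemase gene Amacr at 1.85 and 3.95 FPKM (2.14-fold lower by the plain ratio) and the sterol carrier gene Scp2 at 48.5 and 69.9 FPKM (1.44-fold lower). Cyp7a1, the rate-limiting enzyme of the classical pathway, was listed at 0 in both libraries.

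Other carriers of the same membranes also went both ways. Of the 13 listed symbols found for other sinusoidal carriers, 8 were kept, 4 above 0 and 4 below, 1 higher by 2-fold or more and 0 lower by as much, with a median of 0.05. Slc10a5, a relative of Slc10a1, stood at 1.81 FPKM with Ad-KLF14 and 0.315 FPKM with Ad-GFP (5.72-fold higher, interval 3.22 to 10.9). The lactate carrier gene Slc16a1 was 1.86-fold higher and the cholesterol exporter gene Abca1 1.59-fold higher, while the carnitine carrier gene Slc22a5 was 1.98-fold lower. Of 12 other canalicular pumps and channels 9 were kept, 5 above 0 and 4 below, 2 higher by 2-fold or more and 0 lower by as much, with a median of 0.01. The exporter gene Abcg2 stood at 67.1 and 31.8 FPKM (2.11-fold higher, interval 1.95 to 2.29), beside the 2.36-fold ratio of Abcc2. Abcb6, a porphyrin transporter placed in this list whose canalicular role is uncertain, stood at 35.7 and 6.39 FPKM (5.58-fold higher). The bicarbonate exchanger gene Slc4a2 was 1.97-fold lower and the drug efflux gene Abcb1a 1.77-fold lower.

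Genes that anchor and deliver canalicular proteins had 17 of 18 symbols in the tables, and 16 were kept, 11 of them above 0, 2 higher by 2-fold or more and 0 lower by as much, with a median of 0.16. The scaffold gene Slc9a3r1 stood at 156 FPKM with Ad-KLF14 and 53.1 FPKM with Ad-GFP (2.94-fold higher, interval 2.75 to 3.15). The canalicular adhesion gene Ceacam1 stood at 7.82 and 2.27 FPKM (3.44-fold higher, interval 2.48 to 4.86). Radixin, Rdx, which ties Abcc2 to the actin cortex, stood at 55.9 and 63.6 FPKM (1.14-fold lower, interval 1.08 to 1.20). Its relative moesin, Msn, was 1.996-fold lower at 97.4 and 194 FPKM, just under 2-fold. The recycling endosome gene Rab11a was 1.68-fold lower.

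**Figure D4:**
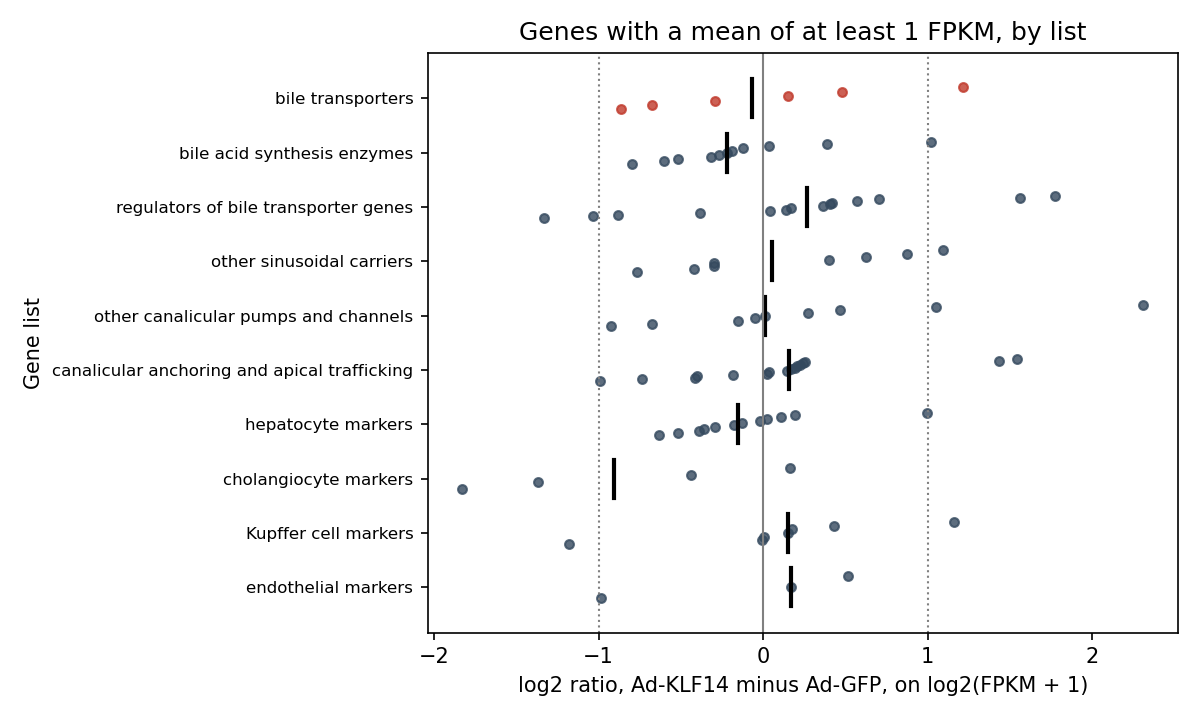
Difference between Ad-KLF14 and Ad-GFP in log2(FPKM + 1) for the genes kept, 1 point per gene, for the bile transporters (red) and 9 context lists (dark). Black bars are medians, the solid line marks 0 and the dotted lines 2-fold. The 6 bile transporters spread on both sides of 0 around a median of −0.07, and the cholangiocyte markers have the lowest median, −0.91.

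Markers of other cell types were low or mixed. The 12 hepatocyte markers had a median of −0.15, with 0 apart by 2-fold or more on log2(FPKM + 1), and ran between the transcription factor gene Cebpa (2.02-fold higher by the plain ratio) and the urea cycle gene Cps1 (1.75-fold lower), with Fgb 1.43-fold and Trf 1.31-fold lower. Of the 9 Kupffer cell markers found, 7 were kept, with a median of 0.15 and 1 gene apart by 2-fold or more on each side (Cd68 2.25-fold higher and Mpeg1 2.34-fold lower). Their summed levels were 209 FPKM with Ad-KLF14 and 141 FPKM with Ad-GFP. Of these sums Cd68 alone made up 160 and 71.1 FPKM, and Mpeg1 17.1 and 40.1 FPKM. Of 8 endothelial markers 3 were kept, 2 above 0 and 1 below, with a median of 0.17. Pecam1 was 1.81-fold higher (interval 1.23 to 2.71), and the interval of the Cdh5 ratio of 1.19 held 1 (0.875 to 1.63). Flt4 was 2.46-fold lower, at 2.04 FPKM with Ad-KLF14 and 5.03 FPKM with Ad-GFP. The endothelial sums of 8.57 and 10.2 FPKM include it. All 8 stellate cell and fibroblast markers were under 1 FPKM in both libraries. The part of these cells in the carrier differences was not tested.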

How the data were processed

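Trizol extraction and Illumina TruSeq library preparation are given per the labels' protocols. The reads were processed with Bowtie 0.12.2 on mm8, per the submitters' processing notes; the gene models, counting rule, strand use and pooling of cultures are not given in the sources used here. The series' design text also names other aligners, but it speaks of retinal profiles in triplicate and may describe another study in part. The authors deposited 1 table of FPKM values per library.

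Differences are given as log2(FPKM + 1) with Ad-KLF14 minus that with Ad-GFP, for the genes whose mean level reached 1 FPKM (called kept), and folds of named genes are plain FPKM ratios. Within a gene, the ratio of both values is a ratio of whole reads times that of the library totals, so reads were recovered as the smallest pair with a whole gene length (multiplied where this matched a GENCODE M21 transcript within 1%, as for Slc10a1). They are lower limits where reads were not split between places and no such multiple was taken. Where reads were split, or where a multiple matched a transcript by accident, they can be too high and the intervals too narrow. The totals had the factor at which 33.7% of 6609 gene lengths came within 1% of a transcript, against 7.35% for the next factor. The script was tested on simulated reads with gene lengths taken from GENCODE M21, so genes whose models differ from it were not tested. Intervals are exact: Clopper-Pearson for ratios, Poisson for levels and conditional for a ratio of ratios (95%, SciPy 1.17.1). They cover counting error only.

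The 10 genes and the gene lists were chosen with earlier results of these data known, as were the gene pairs and the motifs. The text names the 10 genes, Klf14, up to 4 genes per list with the largest absolute log2 ratio, and 6 receptor genes. Other named genes (Alb, Tmem30a, Fgfr4, Cyp7a1, Krt7, Cftr, Krt19 and Rdx) were chosen for their known role after values had been seen. A listed regulator gene is not reported here and was left out of the counts.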

Additional observations from a re-analysis of the deposited data

How the results depend on the processing

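The log2 ratio of each of the 10 bile transporters was computed under 6 alternatives to its scale (pseudocounts of 0.1 and 5 FPKM, none, and 3 scalings). Ranges were 1.14 to 1.31 for Abcc2, −1.39 to −0.35 for Abcb11 and 0.21 to 1.35 for Abcg8. A pseudocount cannot change the sign of a ratio. The 3 scalings all raised the ratios, so they could have changed only signs below 0, and they changed none. The count of kept transporters higher by 2-fold or more was 1 under each of the 8 alternatives. The count lower by as much, 0 as reported, was 1 (Abcb11) with a pseudocount of 0.1 FPKM and 1 without a pseudocount, a setting chosen after seeing the data. With a pseudocount of 5 FPKM, 295 of all genes kept were higher by 2-fold or more and 467 lower, where 791 and 1117 were so in the values reported, since it shrinks every ratio. With a mean of at least 5 FPKM required, 3 transporters remained and their median was 0.48. Without a filter all 10 entered and the median was −0.11. Scaling both libraries to the same FPKM sum without Klf14 moved the split of all genes to 979 higher by 2-fold or more and 938 lower. The remaining 26 values that moved concern single genes or context lists. No paired analysis was possible because each group has 1 library. Depth limits Slc10a1, Slco1a1, Slco1b2, Abcg5 and Abcg8, for which 58 reads or fewer per library were recovered.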

Other observations

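The inverted repeat AGGTCANTGACCT with at most 1 letter off, which precedes Abcb11 and Slco1b2, was found before 26 genes in all, 16 of them in the tables. Of these, 8 were kept, and the 7 that are no bile transporter went both ways, with 3 above 0, 4 below and a median log2 ratio of −0.39. The retinoic acid receptor gene Rarg stood at 1.51 FPKM with Ad-KLF14 and 4.09 FPKM with Ad-GFP. The other 3 below 0 were Tbc1d14 at 7.59 and 12.8 FPKM, Efemp2 at 0.649 and 1.38 FPKM and Steap3 at 13.1 and 17.4 FPKM. The histone gene H3f3c stood at 9.09 FPKM with Ad-KLF14 and 3.52 FPKM with Ad-GFP. The autophagy receptor gene Nbr1 stood at 108.6 and 56.9 FPKM, and the apolipoprotein gene Saa4 at 64.3 and 42.7 FPKM.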
